A study of Bos taurus with 24 samples.

Results

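The Toll-like receptors and the proteins that present lipopolysaccharide (LPS) to them were followed in cultured fibroblasts grown from bovine skin, cells that build connective tissue. The set held 10 genes by symbol, TLR1, TLR2, TLR3, TLR4, TLR5, TLR6, TLR10, CD14, LY96 and LBP, and 9 of them had a row among 59846 counted rows, of which 27550 carried a gene symbol. TLR1 was not analysed here, because no row carried that symbol. RefSeq lists TLR1 as a synonym of both TLR6 and TLR10. The rule that selected rows used gene names only. Cultures came from 4 Angus (beef) and 4 Holstein (dairy) female cattle, and each culture was sequenced before LPS (hour 0) and after 2 h and 8 h of LPS at 100 ng/ml. This gave 6 groups of 4 samples, in which a number such as Angus 3 names the same animal at each hour. All cultures had been revived from frozen stocks and kept in medium with bovine serum, antibiotics and insulin, transferrin and selenium. Breed was the only difference in genotype that the labels gave. Each sample was pooled from duplicate wells of 1 culture per animal, so an animal and its culture cannot be told apart. Every sample after hour 0 had received LPS, so LPS and time in culture cannot be told apart either.

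Toll-like receptors are membrane proteins that recognise microbial molecules and signal through adaptor proteins to NFKB and interferon regulatory factors. TLR4, the signalling receptor for LPS of Gram-negative bacteria, works together with LY96 (also called MD-2), which binds the lipid part of LPS. LBP, a serum protein made mainly by the liver, extracts LPS, and CD14 hands it to the TLR4 and LY96 complex. TLR2 pairs with TLR1 or TLR6 to recognise bacterial lipoproteins, TLR5 recognises flagellin, and TLR3 senses double-stranded RNA in endosomes. TLR10 is closely related to TLR1 and TLR6, and its ligand is less well defined.

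The libraries held 51014538 to 104406293 counts, so that 3 counts, the limit of detection used here, stood for 0.0287 to 0.0588 CPM (counts scaled to a common library size). Such limits cover counting error only. All 10 fibroblast markers were at 1 CPM or more in every library, whereas 9 of 10 macrophage and leukocyte markers were under 1 CPM in every library and 3 of them never exceeded 3 counts. CD68, which fibroblasts can also express, was the exception. In 4 libraries (Angus 4, Holstein 2 and Holstein 4 at hour 0, and Angus 3 at 2 h) reads of COL1A1 had been counted differently, each count covering 66.2 to 67.1 bases there and 111.8 to 119 bases elsewhere. These 4 libraries also differed as a whole, with 96.2 to 96.5% of the reads matched against 92.9 to 95.2% elsewhere. They held 1.56 to 1.71 counts per matched read against 1.5 to 1.54 elsewhere, and the cause was not tested. In covered bases per count the receptor rows did not show that split. TLR4 had a median of 97.8 in these 4 libraries and 95.2 in the other 20, and TLR2 had 98.1 and 98.5. The values of these libraries are nevertheless given with and without them where a call depends on them. In these bulk samples, fewer cells of a type and less RNA per cell cannot be told apart.

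Of the 9 receptors and co-receptors with a row, LY96, TLR3 and TLR6 were above 1 CPM in all 24 libraries, TLR4 in 18 and TLR2 in 17. CD14, TLR5, TLR10 and LBP were under 1 CPM in every library. Between genes, levels can be compared only per length, and here the only length was the span of the row with its introns. A row with a large share of introns is placed lower on this scale, so the order describes rows and does not rank transcripts. The rows of LY96 (32839 bp) and TLR6 (33716 bp) were longer than that of TLR3 (10941 bp). On this scale TLR3 was highest (mean of 24 libraries 0.775 CPM per kb, range 0.546 to 1.47), and it did not overlap LY96 (0.367, 0.266 to 0.463) but overlapped the highest libraries of CD14 (up to 0.694). CD14 (0.245), TLR4 (0.199), TLR6 (0.194) and TLR2 (0.189 CPM per kb) followed, and their ranges overlapped one another and that of LY96. TLR5 (0.00444), TLR10 (0.00344) and LBP (0.000654 CPM per kb) were lowest in these means over all groups, with ranges that overlapped one another and did not reach the lowest library of TLR2 (0.0313 CPM per kb). CD14 thus followed LY96 per kb although it was under 1 CPM, its row being the shortest with 1417 bp. The order of these means changed within groups, since at 8 h TLR2 (0.457) exceeded LY96 (0.357 CPM per kb) in Angus and CD14 (0.371) exceeded LY96 (0.293 CPM per kb) in Holstein. LY96 had a median of 56.0 covered bases per count where the other receptors with enough counts had 89.9 to 98.5, so its place in this order is less certain. The part of the counting in that value was not tested.

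**Figure D1:**
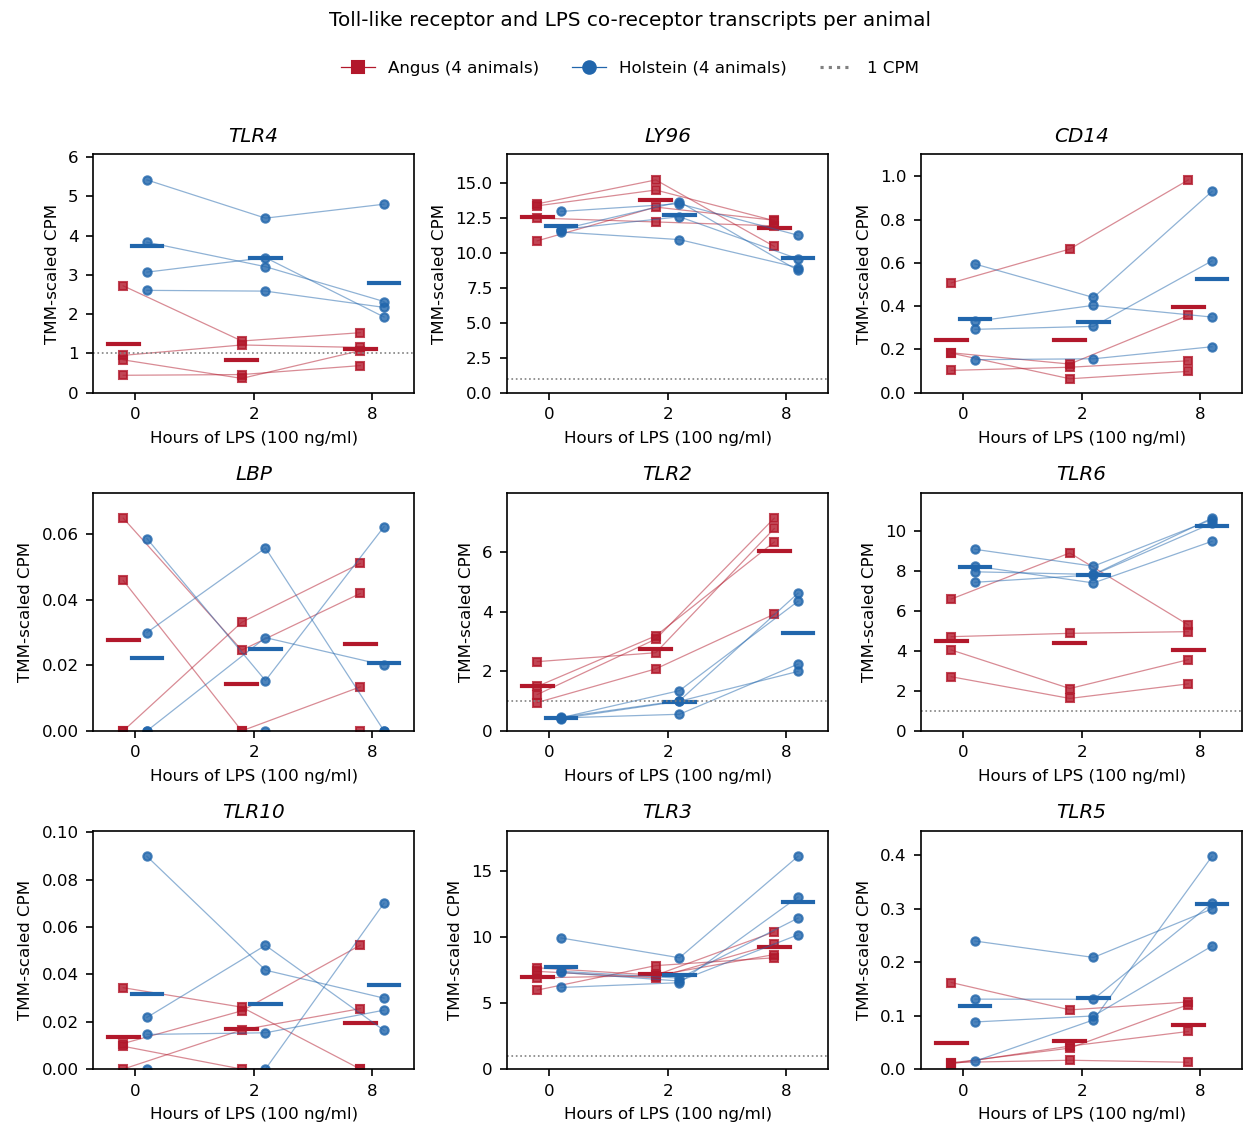
Level of each receptor or co-receptor as TMM-scaled CPM (vertical axis, linear, separate for each gene) at 0, 2 and 8 h of LPS (horizontal axis) in 4 Angus (red squares) and 4 Holstein cultures (blue circles). Thin lines join the samples of 1 animal, thick bars are group means, and the dotted line marks 1 CPM. TLR4 and TLR6 lie higher in Holstein, TLR2 lies higher in Angus and climbs with time in every animal, and CD14, LBP, TLR10 and TLR5 stay under 1 CPM.

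TLR4 (chromosome 8, 108828899 to 108839911 on bovine build UMD v3.1, plus strand) showed the largest breed difference of the tested members at 2 h and no called change after LPS. At hour 0, its level in Angus 1, 2, 3 and 4 was 0.836, 0.951, 2.72 and 0.443 CPM, and in Holstein 1 to 4 it was 3.07, 5.42, 2.60 and 3.83 CPM. The breeds overlapped at this hour by a single animal, Angus 3, which was above Holstein 3. At 2 h the Angus levels were 0.364, 1.22, 1.32 and 0.462 CPM, against 3.44, 4.44, 2.59 and 3.21 CPM in Holstein, and the breeds no longer overlapped. At 8 h they were 1.07, 1.15, 1.53 and 0.689 CPM in Angus and 1.93, 4.80, 2.17 and 2.32 CPM in Holstein, again without overlap. Among all rows tested, 17.3% showed no overlap of the breeds at hour 0, 24% at 2 h and 20.4% at 8 h.

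A row was called when its false discovery rate (FDR) was under 0.05, its fold change 2 or more and its average level above 1 CPM, which held for 3.83% of the rows between breeds at hour 0, 4.46% at 2 h and 3.25% at 8 h. Of the receptors and co-receptors, 5 passed the expression filter for these tests (TLR2, TLR3, TLR4, TLR6 and LY96), and 2 of the 5 were called at each hour. They were TLR2 and TLR4 at 0 and 2 h, and TLR4 and TLR6 at 8 h. TLR4 was 3.01-fold higher in Holstein at hour 0 (log2 fold change 1.59 ± 0.50 standard error, FDR = 0.0209), 4.04-fold higher at 2 h (2.01 ± 0.41, FDR = 9.66e-05) and 2.52-fold higher at 8 h (1.33 ± 0.36, FDR = 0.00457). The 2 h difference kept its call under every setting and without each animal in turn, with log2 values from 1.77 to 2.32. The hour 0 difference was the least certain of these. With the quasi-likelihood F test its FDR was 0.0776, and the call was lost without Angus 1, Angus 2, Angus 4, Holstein 2 or Holstein 4 (FDR 0.0606 to 0.103), whereas without Angus 3 the log2 fold change was 2.33 (FDR = 3.34e-08). Without the 3 hour 0 libraries in which COL1A1 was counted differently, 3 Angus and 2 Holstein cultures remained and TLR4 differed by 0.91 ± 0.56 (FDR = 0.567). At 8 h, the fold change without Holstein 2 was 1.93, under the limit of 2, with an FDR of 0.0166. The summed level of the fibroblast markers, COL1A1 among them, was also higher in Holstein. At hour 0 it was 72570 to 124700 CPM where Angus had 53290 to 68850 CPM. At 8 h it was 61740 to 79090 CPM where Angus had 37870 to 59000 CPM. At 2 h, when TLR4 did not overlap, these sums overlapped (70650 to 85750 and 43290 to 88420 CPM) only through Angus 3. The library of Angus 3 at 2 h was one with differently counted COL1A1, and the other Angus cultures had 43290 to 58520 CPM. The highest sums at hour 0, in Holstein 4 and Angus 4, were also from such libraries. Other marker sums that did not overlap between breeds were those of 6 endothelial markers, of which 2 were under 1 CPM in every library, at 8 h (2.92 to 4.36 CPM in Angus, 5.19 to 7.96 CPM in Holstein) and at 2 h (2.13 to 3.02 and 3.45 to 5.04 CPM), and of 5 melanocyte markers, of which 3 were under 1 CPM in every library, at hour 0 (10.2 to 11.4 and 5.84 to 7.92 CPM) and 8 h (9.34 to 12.2 and 6.51 to 8.43 CPM). The 7 keratinocyte markers, of which 2 were under 1 CPM in every library, did not overlap at 2 h (0.98 to 1.63 CPM in Angus, 1.65 to 19.8 CPM in Holstein), and Holstein 1 had their highest sum at each hour (up to 25 CPM at 8 h). The part of these markers in the breed differences of TLR4 and the other members was not tested.

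With the breeds combined, the log2 change of TLR4 after LPS was -0.22 at 2 h (95% interval -1.26 to 0.81, FDR = 0.861) and -0.35 at 8 h (-1.25 to 0.56, FDR = 0.709), so that both intervals reach past a 2-fold decrease. With the animal as a block it was -0.26 at 2 h (-0.58 to 0.07, FDR = 0.1995) and -0.22 at 8 h (-0.55 to 0.11, FDR = 0.308). The intervals of that fit stop short of a 2-fold decrease. Within Holstein the 8 h level was lower than that at hour 0 in 4 of 4 animals, with a fold change of 0.606 to 0.886. A change in the same direction in all 4 Holstein animals was found for 53.7% of the rows. The log2 fold change was -0.41 ± 0.35 (FDR = 0.531) without and -0.45 ± 0.15 (FDR = 0.0123) with the animal as a block, while without Holstein 2 and Holstein 4 at hour 0 the first was -0.01. In Angus, TLR4 was higher at 8 h than at hour 0 in 3 of 4 animals and lower in Angus 3 (0.561-fold). The breed by LPS interaction of TLR4 at 8 h was -0.26 ± 0.66 (FDR = 1.0).

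TLR6 (chromosome 6, 59686794 to 59720509, minus strand), the partner of TLR2 for diacylated lipopeptides, was also more highly expressed in Holstein. Its hour 0 level was 4.04, 4.71, 6.59 and 2.71 CPM in Angus 1 to 4 and 9.07, 7.95, 8.23 and 7.42 CPM in Holstein 1 to 4. At 2 h it was 2.12, 4.87, 8.89 and 1.62 CPM in Angus and 8.23, 7.82, 7.39 and 7.79 CPM in Holstein. At 8 h the Angus levels were 3.56, 4.96, 5.29 and 2.35 CPM and the Holstein levels 10.6, 10.6, 9.47 and 10.4 CPM. The breeds were separate at 0 and 8 h, and overlapped at 2 h only through Angus 3, the highest of the 8 samples. The Holstein cultures lay close together (SD 0.341 to 0.689 CPM per hour) and the Angus cultures were spread (SD 1.35 to 3.33 CPM).

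At 8 h TLR6 was 2.54-fold higher in Holstein (1.34 ± 0.25, FDR = 1.03e-05), and the log2 difference stayed between 1.15 and 1.5 without any 1 animal. At hour 0 the difference was 1.81-fold, under the fold limit (0.86 ± 0.26, FDR = 0.0113), with an FDR of 0.158 without the differently counted libraries and a called difference of 1.10 (FDR = 2e-05) without Angus 3. At 2 h it was 0.83 ± 0.47 (FDR = 0.213) with Angus 3, whose 2 h library was one of those in which COL1A1 was counted differently, and 1.44 ± 0.35 (FDR = 0.000829) without it. Over time, TLR6 was higher at 8 h than at hour 0 in 4 of 4 Holstein animals (1.15- to 1.40-fold) and in 1 of 4 Angus animals (0.804- to 1.05-fold). The Holstein change was small, with a log2 fold change of 0.33 ± 0.12 (FDR = 0.0395), and its FDR was 0.101 to 0.327 without any 1 Holstein animal and 0.00192 with the animal as a block. The interaction at 8 h was 0.48 ± 0.37 (FDR = 1.0). With the animal as a block its FDR was 0.0470 by the likelihood-ratio test and 0.115 by the quasi-likelihood F test. The unnamed interval between TLR10 and TLR6 (59677224 to 59686793) held 2 to 48 counts per library. Since TLR6, TLR10 and TLR1 are similar in sequence, reads of one could have been placed on another.

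**Figure D2:**
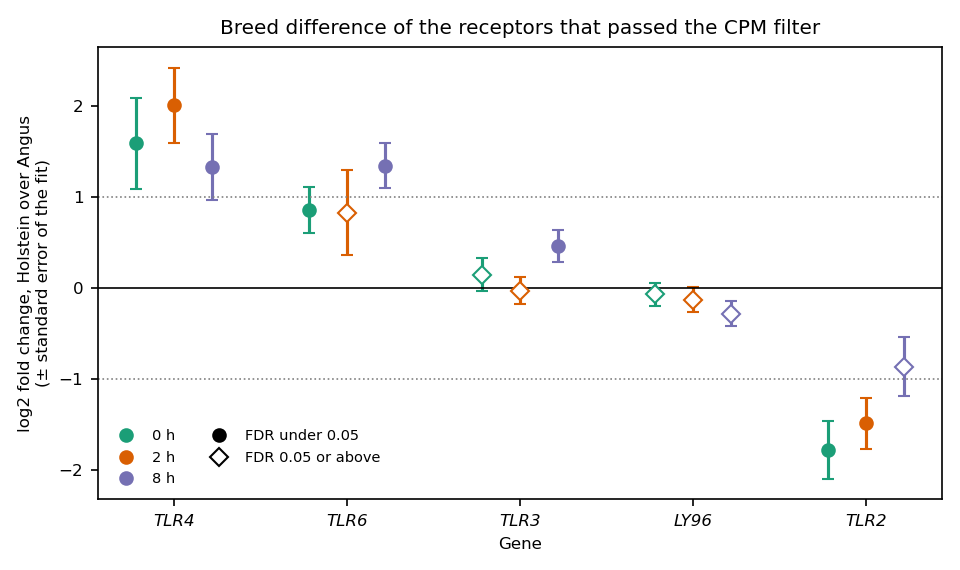
Breed difference of the 5 receptors that passed the CPM filter, as the log2 fold change of Holstein over Angus (vertical axis) with its standard error, at 0 h (green), 2 h (orange) and 8 h (violet). Filled circles had an FDR under 0.05, open diamonds did not, and dotted lines mark a 2-fold change. TLR4 is above the upper dotted line at each hour, TLR2 is below the lower one at 0 and 2 h, and TLR3 and LY96 lie between the lines. Of these, TLR3 at 8 h (0.46 ± 0.17) had an FDR under 0.05.

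TLR2 (chromosome 17, 3949870 to 3963092, minus strand) had the opposite breed difference and the only LPS response of the set that was called. Before LPS its level was 1.22, 0.951, 1.49 and 2.32 CPM in Angus 1 to 4, and 0.434, 0.454, 0.414 and 0.441 CPM in Holstein 1 to 4. The Holstein values differed little from each other (SD 0.0165 CPM) and all lay under the lowest Angus value. At 2 h it was 3.08, 2.08, 3.19 and 2.62 CPM in Angus and 0.557, 1.01, 0.993 and 1.35 CPM in Holstein, again without overlap. By 8 h it had reached 7.13, 3.91, 6.33 and 6.78 CPM in Angus and 2.24, 4.61, 1.99 and 4.34 CPM in Holstein, where Holstein 2 and Holstein 4 were above Angus 2. The breeds thus overlapped at 8 h.

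TLR2 was lower in Holstein at hour 0 (log2 fold change -1.78 ± 0.32, FDR = 4.43e-06) and at 2 h (-1.49 ± 0.28, FDR = 1.2e-05). At hour 0 it passed the expression filter only through Angus libraries, so that a difference was built into that test. At 2 h the 4 Angus libraries alone were enough to meet the filter. In the fit with no filter TLR2 differed by -1.79 ± 0.33 at hour 0 (FDR = 2.57e-05) and by -1.49 ± 0.29 at 2 h (FDR = 7.15e-05). Its average level at hour 0, 1.02 CPM, was just above the limit of 1 CPM. The call at hour 0, though not the difference, was lost to that limit under DESeq2 (0.965 CPM on average) and without the 3 libraries named above (-1.52, FDR = 0.00255). The filter removed it at hour 0 when any 1 Angus animal was left out. At 8 h the difference was -0.87 ± 0.33 (FDR = 0.0502), and it passed without Angus 2, Holstein 2 or Holstein 4 (-1.07 to -1.02). The macrophage and leukocyte markers had a sum of 3.00 to 5.33 CPM in the Angus and of 1.99 to 3.59 CPM in the Holstein cultures at hour 0, mostly CD68, and their part in the TLR2 difference was not tested. At 2 h, when TLR2 still did not overlap, these sums were 4.39 to 5.46 CPM (Angus) and 4.50 to 5.64 CPM (Holstein).

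After LPS, TLR2 was higher than at hour 0 in 8 of 8 animals at 2 h (1.13- to 3.06-fold) and in 8 of 8 at 8 h (2.92- to 10.2-fold). A rise in all 8 animals was found for 17.8% of the rows at 2 h and 13.8% at 8 h. With the breeds combined, TLR2 rose 4.79-fold at 8 h (2.26 ± 0.38, FDR = 1.2e-06) and a further 2.52-fold between 2 and 8 h (1.33 ± 0.36, FDR = 0.00193). It was 1 of 5 tested members called at 8 h, where 1.42% of all rows were called, and 1 of 5 between 2 and 8 h, where 2.76% were. At 2 h no member was called, against 2.82% of all rows. There, the log2 change of TLR2 was 0.93 ± 0.42 (FDR = 0.108), and 0.99 ± 0.17 (FDR = 1.98e-08) with the animal as a block, a 1.99-fold change that remained just under the fold limit. Within breeds no member was called at 2 h, where 3.17% of the rows were in Holstein and 2.99% in Angus. TLR2 differed by 0.87 ± 0.30 in Angus at that hour (FDR = 0.0348, 1.83-fold), whereas in Holstein it was under the expression filter and differed by 1.16 ± 0.32 in the fit without it (FDR = 0.00595, average level 0.71 CPM). The within-breed change at 8 h was 2.92 ± 0.34 in Holstein (FDR = 1.35e-14), where TLR2 passed the filter only through its 8 h libraries and the fit with no filter gave 2.92 (FDR = 3.06e-14), and 2.01 ± 0.31 in Angus (FDR = 2.09e-07). Among all rows, 2.52% were called in Holstein and 0.863% in Angus. Per animal, it was 4.81- to 10.2-fold in Holstein (median 7.50) and 2.92- to 5.86-fold in Angus (median 4.18), so the ranges overlapped. The interaction of 0.90 ± 0.47 (95% interval -0.01 to 1.82, FDR = 1.0) did not pass, nor did it with the animal as a block (0.76 ± 0.31, FDR = 0.219).

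**Figure D3:**
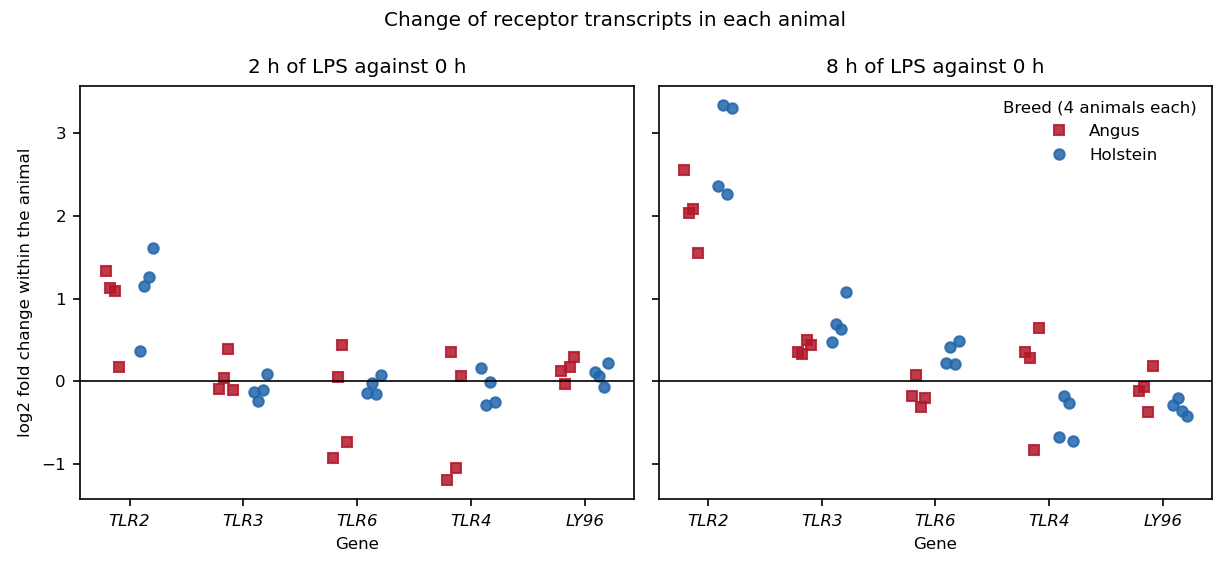
Change of the 5 tested receptors within each animal, as the log2 fold change from hour 0 (vertical axis) at 2 h (left) and 8 h (right), for 4 Angus (red squares) and 4 Holstein animals (blue circles). TLR2 is above 0 in all 8 animals at both hours and TLR3 in all 8 at 8 h. TLR4 and TLR6 lie on both sides of 0 in Angus, while at 8 h TLR4 is below and TLR6 above 0 in all 4 Holstein animals. LY96 is slightly below 0 at 8 h in 7 of 8 animals.

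Because TLR4 and TLR2 differed between breeds in opposite directions, their counts were also compared within each library, a ratio that is free of library scaling but not of the difference in row length. In Holstein, the ratio of TLR4 to TLR2 counts was 6.29 to 11.9 at hour 0, 2.38 to 6.18 at 2 h and 0.535 to 1.09 at 8 h. In Angus, it was 0.191 to 1.83 at hour 0, 0.118 to 0.585 at 2 h and 0.102 to 0.295 at 8 h. The pair was chosen for its opposite breed differences, so these ranges restate them on another scale and are a description.

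**Figure D4:**
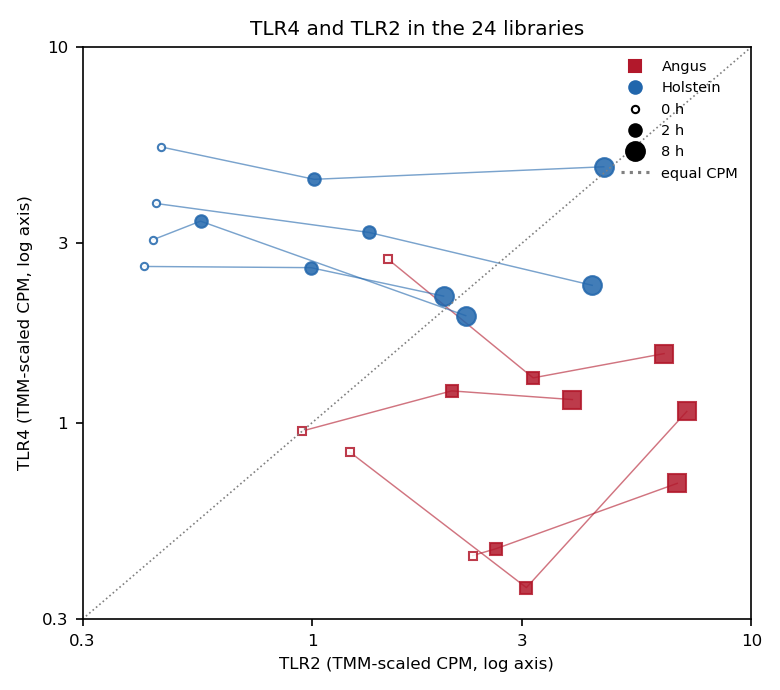
TLR4 against TLR2 in each of the 24 libraries (TMM-scaled CPM, both axes logarithmic), with Angus as red squares and Holstein as blue circles. Symbols grow from 0 h (small, open) over 2 h to 8 h (large), lines join the samples of 1 animal, and the dotted diagonal marks equal CPM. Holstein cultures start above the diagonal and end near it at 8 h, while most Angus libraries lie below it and only Angus 3 starts clearly above.

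TLR3 (chromosome 27, 15232459 to 15243399, plus strand), the endosomal receptor for double-stranded RNA, was higher at 8 h in every animal, by less than the fold limit. In Angus 1 to 4 it was at 7.39, 6.89, 5.97 and 7.65 CPM at hour 0 and at 9.45, 8.66, 8.41 and 10.4 CPM at 8 h. In Holstein 1 to 4 it went from 7.31, 9.91, 7.39 and 6.17 CPM to 10.2, 16.1, 11.4 and 13.0 CPM. The ratio of 8 h to hour 0 was 1.26 to 2.11 over the 8 animals. The combined change was 1.49-fold (0.57 ± 0.15, FDR = 0.00171), under the fold limit. That within Holstein was 1.65-fold (0.72 ± 0.20, FDR = 0.0033), and that within Angus was 1.32-fold (0.40 ± 0.15, FDR = 0.126, and 0.00108 with the animal as a block). At 2 h it was at 6.53 to 8.41 CPM in the 8 cultures and the log2 change was -0.04 (95% interval -0.26 to 0.18). The breeds overlapped at every hour. At 8 h Holstein was 1.38-fold higher (0.46 ± 0.17, FDR = 0.0455), an FDR that was 0.0644 with the quasi-likelihood F test, and at hour 0 the log2 difference was 0.14 (95% interval -0.21 to 0.50).

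LY96 (chromosome 14, 39369425 to 39402263, plus strand) had the narrowest range of the tested members for its level. Its level at hour 0 was 13.3, 12.5, 13.5 and 10.8 CPM in Angus 1 to 4 and 11.7, 12.9, 11.5 and 11.7 CPM in Holstein 1 to 4. At 2 h it lay between 10.9 and 15.2 CPM and at 8 h between 8.72 and 12.3 CPM over both breeds. The breed difference at hour 0 was -0.07 on the log2 scale (95% interval -0.32 to 0.18, FDR = 0.775), and the breeds overlapped at every hour. LY96 was lower at 8 h than at 2 h in 8 of 8 animals (0.640- to 0.977-fold). The log2 fold change of -0.30 ± 0.10 (FDR = 0.0181) was under the fold limit, and its FDR was 0.314 when libraries were scaled by their size alone and 0.0584 to 0.0815 without Angus 3, Holstein 1 or Holstein 4. A change in 1 direction in all 8 animals was found for 34.8% of the rows between these hours. Against hour 0 the 8 h change was -0.20 ± 0.10, with an FDR of 0.173 without and 0.0167 with the animal as a block.

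CD14 (chromosome 7, 53447569 to 53448985, minus strand) had 6 to 94 counts per library, all above the limit of detection. Its level at hour 0 was 0.184, 0.103, 0.507 and 0.183 CPM in Angus 1 to 4, and 0.329, 0.293, 0.153 and 0.595 CPM in Holstein 1 to 4. At 8 h it was 0.357, 0.147, 0.983 and 0.0985 CPM in Angus and 0.349, 0.609, 0.212 and 0.930 CPM in Holstein, so that animals of the same breed differed more than the breeds did. It was higher at 8 h than at hour 0 in 7 of 8 animals (0.538- to 2.08-fold). In the fit with no filter on low counts, the log2 change at 8 h was 0.67 ± 0.47 (FDR = 0.562) and the breed difference at hour 0 was 0.44 ± 0.56 (FDR = 0.748).

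TLR5 (chromosome 16, 27278411 to 27306323, minus strand) had 1 to 32 counts per library, and 17 of 24 libraries held more than 3. At 8 h it was 0.0127, 0.121, 0.126 and 0.0703 CPM in Angus 1 to 4 and 0.299, 0.398, 0.310 and 0.230 CPM in Holstein 1 to 4, without overlap. It overlapped between breeds at 0 h and 2 h. With no filter, TLR5 was 3.64-fold higher in Holstein at 8 h (1.86 ± 0.48, FDR = 0.00398), at an average level of 0.231 CPM, and its interaction with LPS at 8 h was 0.63 ± 1.15 (FDR = 1.0).

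TLR10 (chromosome 6, 59670230 to 59677223, minus strand) had 0 to 7 counts per library, with 0 in 6 libraries and more than 3 in 4 of them. LBP (chromosome 13, 67875398 to 67910095, plus strand) had 0 to 6 counts, with 0 in 10 libraries and more than 3 in 7. In the fit with no filter, neither had an FDR under 0.05 in any comparison, and the standard errors were large, as for TLR10 between breeds at hour 0 (1.14 ± 1.13, FDR = 0.63). TLR7, TLR8 and TLR9, the endosomal receptors for nucleic acids, were low as well, the highest group mean being 0.0994 CPM for TLR9 in Holstein at 2 h. That was above the highest group means of TLR10 (0.0353 CPM) and LBP (0.02765 CPM).

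Some animals kept the highest or lowest place in a member at each hour, and such cases are given here as examples. Angus 3 had the highest TLR4, TLR5, TLR6 and CD14 of the 4 Angus animals at each hour, and Angus 4 had the lowest TLR6. Holstein 2 had the highest TLR4 and TLR3 of the 4 Holstein animals at each hour. In contrast, the highest TLR2 in Angus was in Angus 4 at hour 0, Angus 3 at 2 h and Angus 1 at 8 h. The share of all rows that keep such a place was not computed. Deviations of the same animal also correlated with hour 0 over rows in general (mean r 0.658 at 2 h and 0.619 at 8 h). The rows most like each member over the 24 libraries were described with Pearson's r of log2(CPM + 1) among 12958 rows with a symbol. For TLR4 they were KLHL24 (r = 0.957), HSD11B1L (0.953) and HSD17B11 (0.942), and r stayed at 0.838 to 0.857 when the group means had been removed. For TLR6 they were B7H6 (0.944), SCP2 (0.934) and GDAP1 (0.934), with 0.863 to 0.880 within groups. TLR2 was most like VEGFC (0.936), DRAM2 (0.923) and PID1 (0.909), where r within groups was 0.434 to 0.624. For TLR3 they were FILIP1 (0.882), ROBO1 (0.879) and FRMD6 (0.872), and for LY96 they were SPG20 (0.852), LMTK2 (0.810) and ZFP106 (0.801). The 24 points share animals, libraries and the breed and hour differences.

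Other genes of LPS and pattern sensing were described as a list of 46, of which 34 to 36 passed the filter. MYD88, the adaptor shared by nearly all of these receptors, had group means of 21.5 to 23.8 CPM, and its log2 breed differences were 0.05 to 0.11 with FDR values of 0.579 to 0.772. Of 20 adaptors and kinases, 1 was called at each hour between breeds, a share near that of all rows (3.83%, 4.46% and 3.25%). This was SARM1, a TIR domain protein with NADase activity, which was higher in Holstein at hour 0 (1.15 ± 0.40, FDR = 0.0334), at 2 h (1.20 ± 0.36, FDR = 0.00871) and at 8 h (1.06 ± 0.32, FDR = 0.0131). TICAM2, the bridging adaptor of TLR4, was higher in Holstein at 2 h (0.76 ± 0.17, FDR = 0.000377) and at 8 h (0.60 ± 0.14, FDR = 0.000868), both under the fold limit. HMGB1, a nuclear protein that can be released as a danger signal, was lower in Holstein at the 3 hours (-0.89, -0.93 and -0.85, FDR at most 5.57e-05), also under that limit. After LPS, TICAM1, the adaptor of TLR3 and of the endosomal TLR4 pathway, was called at 2 h with the breeds combined (1.28 ± 0.15, FDR = 1.65e-14). It was the only 1 of the 20 called at 2 h, where 2.82% of all rows were called. At 8 h none of the 20 was called, against 1.42% of all rows.

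Of 6 genes that restrain these pathways, 5 passed the filter after LPS and 2 were called higher after LPS at both hours, where 2.82% and 1.42% of all rows were called. TNFAIP3, which encodes the ubiquitin-editing enzyme A20, rose by 5.45 ± 0.38 at 2 h (FDR = 4.03e-31) and by 3.79 ± 0.37 at 8 h (FDR = 1.04e-17) on the log2 scale. At hour 0 alone TNFAIP3 was under the expression filter. It entered these tests through the libraries after LPS, so that a rise was built into them. TNIP1, which encodes a partner of A20, rose by 1.76 ± 0.28 (FDR = 3.92e-08) and 2.27 ± 0.31 (FDR = 9.36e-10). Both were higher in Holstein at 8 h (1.40 ± 0.39 with FDR = 0.00658 and 1.48 ± 0.30 with FDR = 9.67e-05).

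Of the other pattern receptors, all 4 were called higher at 8 h than at 2 h, where 2.76% of all rows were called. IFIH1 and DDX58, the cytosolic RNA sensors MDA5 and RIG-I, were also called at 8 h against hour 0 (4.57 ± 0.45 with FDR = 3.68e-16 and 1.15 ± 0.29 with FDR = 0.00198) and were higher in Holstein at 8 h (1.87 ± 0.40 with FDR = 0.000298 and 1.29 ± 0.35 with FDR = 0.00523). IFIH1 was under the expression filter in every comparison without 8 h libraries, so that a rise was built into its tests of 8 h against earlier hours. NOD1, a sensor of peptidoglycan fragments, fell at 2 h (-1.16 ± 0.27, FDR = 0.000239) and was higher in Holstein at that hour (1.27 ± 0.28, FDR = 0.000188). The paper lists NOD1 between breeds at 2 h with an average just above 1 CPM. Its Holstein libraries alone could thus have met the filter, so that a difference may have been built into that breed test. Between 2 and 8 h NOD2 was called (1.03 ± 0.15, FDR = 1.62e-09). NOD2 was also lower at 2 h than at hour 0 (-0.64 ± 0.16, FDR = 0.000945), under the fold limit. At 8 h against hour 0 neither passed (NOD1 -0.11 ± 0.23 with FDR = 0.822, NOD2 0.39 ± 0.16 with FDR = 0.0932). CASP4, whose product binds cytosolic LPS, rose at 8 h (1.25 ± 0.18, FDR = 1.36e-09). In all, 5 of 36 listed genes were called higher and none lower at 8 h, where 1.42% of all rows were called, with a median log2 fold change of 0.04 over the list and -0.01 over all rows. These 5 include TNFAIP3 and IFIH1, which passed the filter through libraries after LPS. Between breeds, 1 of 34 was called at hour 0, 2 of 35 at 2 h and 5 of 36 at 8 h, all higher in Holstein. The first 2 shares were near those of all rows (3.83% and 4.46%), and at 8 h 3.25% of all rows were called. The differences had list medians of 0.09, 0.13 and 0.16, where all rows had medians between -0.01 and 0.01. No listed gene was called for the interaction of breed and LPS, where 0.278% of the rows were called at 2 h and 0.0982% at 8 h.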

How the data were processed

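The authors removed low-quality and short reads, aligned the rest to the bovine genome UMD v3.1 with NextGENe 2.3.4 and deposited raw read counts per row, without normalization, beside a mean coverage signal that the authors deposited for each row. The coverage was used here only to compute covered bases per count. Rows are whole gene spans with introns, so exons and untranslated regions were not separated. Counts summed to 1.5 to 1.71 times the matched reads, so a read could enter more than 1 row. A chi-square test over rows found no library deposited more than once among the 36 within-group pairs.

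Counts were scaled by TMM and tested with edgeR 4.0.16 in R 4.3.3, using the likelihood-ratio test of the study, rows with at least 1 CPM in at least 50% of the samples compared, and Benjamini-Hochberg adjustment over all rows. TMM was added because the study names no scaling. The likelihood-ratio fit was tried on simulated data for the breed difference at hour 0, the combined change at 8 h and the interaction at 8 h. These data had 1 dispersion for all rows and no animal effect. The other comparisons and fits were not simulated. The animal number pairs the hours by the labels, and deviations of the same animal correlated (mean r 0.658 at 2 h and 0.619 at 8 h, against -0.218 and -0.205 for other animals). Alternatives were other scalings, filters and tests (with DESeq2 1.42.0), a block for the animal, and fits without libraries or animals. The members, gene lists and tests were chosen with earlier results of these data known. All members are named, together with the 3 most similar rows of each, and listed pathway genes called in any combined or breed comparison. MYD88, TICAM2, HMGB1, TLR7, TLR8 and TLR9 were added after their values were seen. Genome and transcript sequences were not used here.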

Additional observations from a re-analysis of the deposited data

Results flagged for a closer look

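In each group of 4 samples, the highest and the lowest value of each member were compared with the rest of the group by Dixon's gap ratio at its 95% critical value, and 4 of 54 groups held a value that stood apart. Chance gives about 1 in 20. TLR4 in Holstein 2 at 8 h was at 4.80 CPM, while the other 3 Holstein cultures were at 1.93 to 2.32 CPM. LY96 in Holstein 2 at hour 0 was at 12.9 CPM against 11.5 to 11.7 CPM, and this library was one of those with a different counting of COL1A1. TLR5 in Angus 3 at hour 0 was at 0.162 CPM (15 counts) against 0.00963 to 0.0123 CPM. CD14 in Angus 3 at 2 h was at 0.664 CPM (54 counts) against 0.0644 to 0.132 CPM, and this library too was one with a different counting of COL1A1. Both levels were under 1 CPM.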

How the results depend on the processing

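Over the alternatives, the member changes kept direction and side of the threshold 1009 times, passed newly 18 times, no longer passed 10 times and turned 31 times. TLR2 at 8 h against hour 0 stayed called in all alternatives, combined (2.16 to 2.48), in Holstein (2.73 to 3.07, where it passed the filter only through its 8 h libraries) and in Angus (1.83 to 2.3), as did TLR6 between breeds at 8 h (1.15 to 1.5), and TLR4 (1.77 to 2.32) and TLR2 (-1.68 to -1.29) between breeds at 2 h. For TLR2 at 2 h the Angus libraries alone were enough to meet the filter.

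The number of members called moved as follows. Under an FDR limit alone it was 2 at 8 h and 3 at 8 h against 2 h (combined), 3 in Holstein at 8 h and 1 in Angus at 2 h. With all 24 samples in 1 fit 1 member in place of 0 was called at 2 h, both combined (TLR2, 1.02) and in Holstein. In Angus at 2 h TLR2 was called without the differently counted libraries (1 in place of 0). Between breeds at hour 0 the number was 1 with the quasi-likelihood F test or DESeq2 and 0 without those libraries, in place of 2. Leaving out 1 animal gave 0 to 2 members between breeds at hour 0, 2 to 3 at 2 h and 8 h, 0 to 1 at 2 h combined and in Angus (1 without Angus 4), and 1 in every LPS comparison at 8 h.

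The replicate block changed no member's call. The direction turned only for changes that no alternative called. Without the differently counted libraries, log2 values turned to 0.00381 (TLR3) and 0.12 (TLR4) at 2 h combined, 0.27 (TLR4, Holstein, 2 h), 0.0167 (TLR3 between breeds at 2 h), and, for the interactions, 0.68 (TLR6) and 0.10 (LY96) at 2 h and 0.42 (TLR4) at 8 h. With library size only they turned to 0.00946 (TLR4, 8 h against 2 h), -0.0782 (TLR3, Angus, 2 h) and, for the 2 h interactions, 0.149 (TLR6) and 0.0613 (LY96). With the replicate block, by the likelihood-ratio and F test, they turned to 0.0529 and 0.0126 (TLR4, 8 h against 2 h), 0.0656 and 0.0372 (TLR4, Angus, 8 h), and 0.22 and 0.19 (TLR6 interaction at 2 h). With all samples in 1 fit TLR4 turned to 0.0585 at 8 h against 2 h. Leaving out 1 animal spanned 0 in the changes of TLR4 at 8 h against 2 h (-0.209 to 0.0203), TLR3 (-0.0580 to 0.105) and TLR6 (-0.41 to 0.14) in Angus at 2 h, TLR4 in Angus at 8 h (-0.29 to 0.39), TLR3 between breeds at 2 h (-0.112 to 0.0167), and the 2 h interactions of TLR2 (-0.0263 to 0.497), TLR4 (-0.0151 to 0.763) and TLR6 (-0.20 to 0.34). The cause was not tested.

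Over all rows, the count called moved by over 1.5 times under an FDR limit alone at 2 h (568 to 4436), at 8 h (290 to 2606), at 8 h against 2 h (561 to 4822), in Holstein (644 to 3505 and 517 to 3017), in Angus (608 to 2799 and 178 to 804), between breeds (781 to 2816, 900 to 4050 and 673 to 3411) and for the interaction at 2 h (56 to 88). With named rows alone it was 370 at 2 h, 367 at 8 h against 2 h, at 2 h 410 for Holstein and 405 for Angus, and 28 for the 2 h interaction. The F test gave 90 in Angus at 8 h, and 16 and 0 for the interactions (56 and 20), which the replicate block raised to 126 and 100. Without the differently counted libraries, the count was 259 in place of 781 between breeds at hour 0 and 6 in place of 20 for the 8 h interaction, for which it was 12 with all samples in 1 fit. Leaving out Angus 4 gave 515 between breeds at hour 0 and 446 at 8 h, where leaving out Angus 3 gave 1133, and the interactions moved to 33 (without Angus 4) and 34 (Holstein 1) at 2 h and to 8 (Angus 1), 62 (Angus 3) and 2 (Holstein 4) at 8 h. Members under 1 CPM are limited by depth, and levels moved beyond 1 SD only with library size alone, to 7.46 CPM for TLR6 in Holstein at 2 h and 12.7 CPM for LY96 in Angus at 8 h.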
